A study of Mus musculus with 12 samples.

Results

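The genes described here are 37 genes of protein folding, translocation, export and stress signalling in the endoplasmic reticulum (ER), chosen by gene symbol and followed across 4 sorted populations of tumour stromal cells. They matched 38 of the 55487 genes in the table, because Ddit3 also stands under a second identifier that held 0 reads in all 12 libraries. CPM stands for counts of a gene per 1000000 reads assigned to genes in its library. The other 37 entries all passed a filter of at least 1 CPM in at least 3 libraries, as did 15456 genes in all, and the lowest count of a member in any library was 258 reads (Ern1). The cells came from mammary tumours of 3 untreated FVB MMTV-PyMT mice aged 10 weeks, whose tumours arise because mouse mammary tumour virus control sequences express polyoma virus middle T antigen in the mammary epithelium. All groups share this genotype and age, and each was sorted as live cells without CD45, CD31 and EPCAM and with PDGFRb, after digestion with collagenase I and DNase. The m2cafpos cells were negative for Ly6C and CD146 and positive for PDGFRa and NCAM, and the m2cafneg cells had the same profile without NCAM. The icaf cells were positive for Ly6C, with no gate on PDGFRa or NCAM named, and the vcaf cells were negative for Ly6C and PDGFRa and positive for CD146. Each population had 3 libraries, 1 from each of mice 27, 30 and 31, and values per library are given in that order. Each mouse thus gave a library to every population, and the spread between replicates is that between 3 animals.

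Secreted and membrane proteins enter the ER through the Sec61 translocon, fold with the help of luminal chaperones and disulphide and proline isomerases, and leave in COPII-coated carriers. KDEL receptors return escaped chaperones from the Golgi. When folding capacity falls short, the sensors Ern1 (IRE1), Atf6 and PERK start the unfolded protein response, and fibroblasts that secrete much procollagen rely on this machinery, on large COPII carriers that need Mia3 (TANGO1) and on factors of the CREB3 family.

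The 12 libraries held 43898839 to 55363203 reads assigned to genes, so a single read stood for 0.0181 to 0.0228 CPM. The gate labels were compared with sums of marker genes. The fibroblast and pericyte sums set vcaf apart from the rest and do not check the Ly6C or NCAM gates. The fibroblast list holds Pdgfra and the pericyte list Mcam, the gene of CD146, so these sums are partly tied to the sort. The summed CPM of 10 fibroblast markers averaged 17860 in m2cafpos, 17189 in m2cafneg, 27886 in icaf and 503 in vcaf, whereas the sum of 10 pericyte markers was 158, 272, 235 and 46320 CPM in the same order, so that vcaf carried fibroblast markers at low levels only. The sum of 20 epithelial markers, a cell type that was gated out, ranged over 778 to 3524 CPM in m2cafpos, 6560 to 14352 in m2cafneg, 1221 to 3603 in icaf and 9284 to 19044 in vcaf. Sums of 12 macrophage markers were likewise lower in m2cafpos and icaf (180, 770, 150 and 1061 CPM in the same order). Those of 11 endothelial markers averaged 182, 358, 348 and 1176 CPM, and those of 8 plasma cell markers, a secretory cell type, 30.3, 40.3, 35.4 and 125 CPM. In bulk libraries of this kind, fewer cells of a type and less RNA per cell cannot be told apart.

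The populations differed widely in the collagen they transcribed, and this gave the scale against which the ER genes were read. Transcripts of all 44 collagen chain genes took 16.98%, 16.04% and 17.3% of reads in m2cafpos, 10.3%, 9.01% and 8.29% in m2cafneg, 7.26%, 7.49% and 7.65% in icaf, and 2.59%, 2.58% and 1.99% in vcaf. The order m2cafpos, m2cafneg, icaf, vcaf held within each of the 3 mice, also for the 11 fibrillar chains alone, and no library of a population overlapped with those of another. Summed over the 37 members, expression was 14683 to 16841 CPM in m2cafpos, 14034 to 15997 in m2cafneg, 13809 to 17065 in icaf and 9775 to 10848 in vcaf. On the CPM scale the member sum was lowest in the 3 vcaf libraries and overlapped among the other 3 populations, while collagen load did not. Divided by median-of-ratios size factors, which set the typical gene equal between libraries, the sums were 17154 to 19821 in m2cafpos, 12733 to 15817 in m2cafneg, 14685 to 17890 in icaf and 7868 to 8507 in vcaf, so that m2cafpos and m2cafneg no longer overlapped. For each CPM of collagen chains there were 0.0847 to 0.105 CPM of member transcripts in m2cafpos, 0.156 to 0.169 in m2cafneg, 0.181 to 0.235 in icaf and 0.379 to 0.538 in vcaf. For each CPM of the 11 fibrillar chains alone the values were 0.0957 to 0.117 in m2cafpos, 0.183 to 0.202 in m2cafneg, 0.204 to 0.266 in icaf and 0.717 to 0.981 in vcaf. Collagen load differed more between populations than the member sum did, so the order of these ratios mainly reflects collagen. Such ratios were not taken for other genes, so they do not set the members apart.

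Of the 37 members, 29 differed among the 4 populations in the moderated F test of limma at a Benjamini-Hochberg adjusted p below 0.05, a share to be read against 73% of all genes tested. Most calls against vcaf were of higher expression in the other population. In m2cafpos against vcaf 25 members were higher and 3 lower, while 12.4% of all genes were higher and 55.5% lower. In m2cafneg against vcaf 21 were higher and 2 lower (11.3% and 26.6% of all genes), and in icaf against vcaf 23 were higher and 4 lower (13.9% and 46.1% of all genes). Differences among m2cafpos, m2cafneg and icaf touched fewer members. In m2cafpos against m2cafneg 6 were higher and 1 lower (3.51% and 22.6% of all genes), and in m2cafpos against icaf 6 were higher and 1 lower (8.86% and 15% of all genes). In m2cafneg against icaf 5 were higher and 3 lower (20.9% and 8.77% of all genes). These 6 comparisons share libraries with one another. In m2cafpos against icaf 3 members were higher without icaf 27 or icaf 30. In m2cafneg against icaf 3 were higher without icaf 27, 1 was lower without m2cafneg 30, and 0 were lower without m2cafneg 31 or icaf 27. With the log2 sum of epithelial markers as a covariate, 11 members were higher in m2cafpos and 10 in icaf against vcaf. Shares of all genes were not counted with this covariate or with a library left out. The marker sums of m2cafpos and icaf do not overlap with those of m2cafneg and vcaf. In comparisons across that divide, here and below, the covariate and the gate therefore cannot be told apart.

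**Figure D1:**
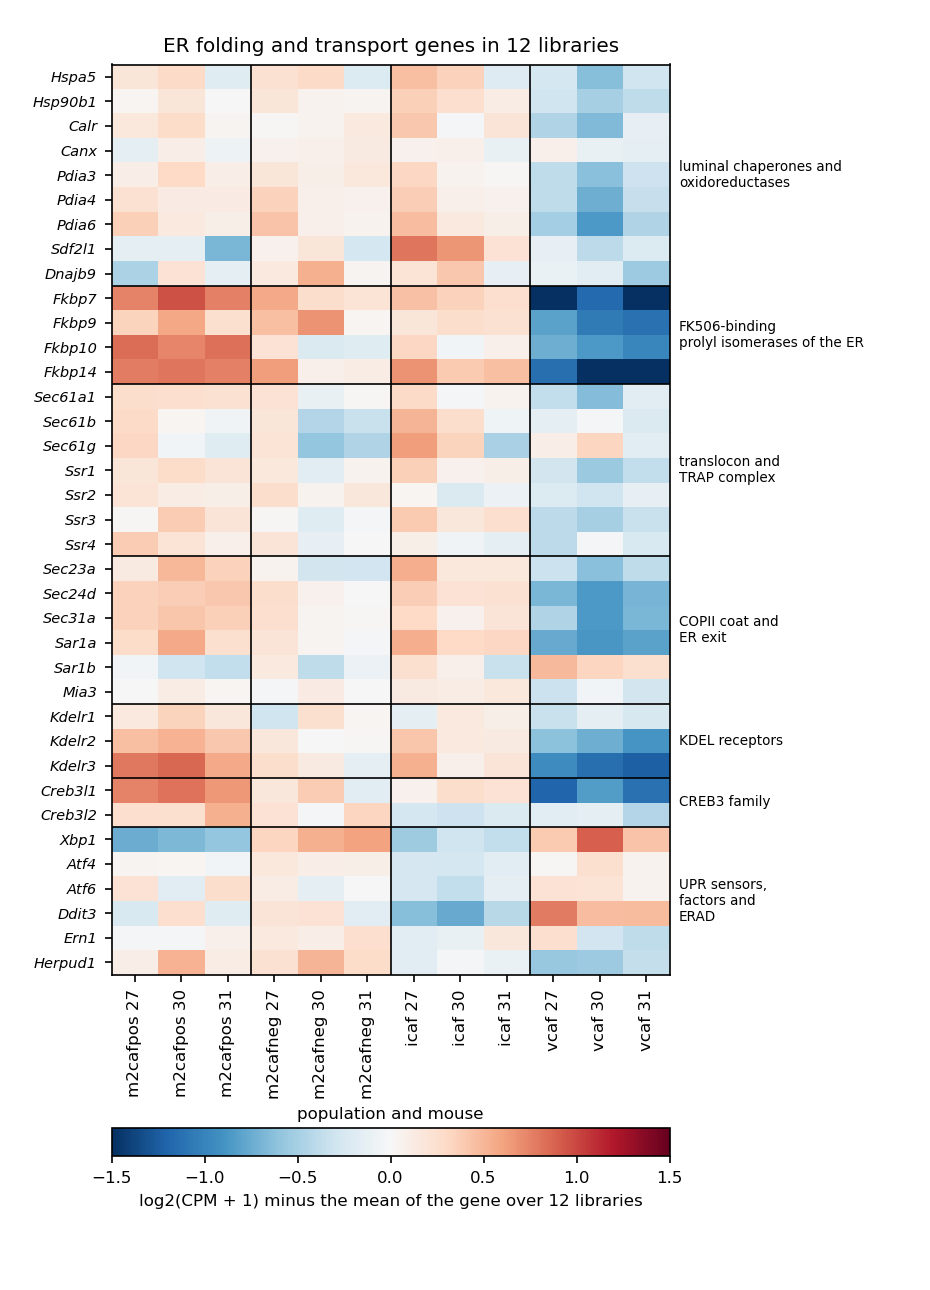
Heat map of 37 genes (rows, by role) in 12 libraries (columns, by population and mouse), coloured by log2(CPM + 1) minus the mean of the gene over the 12 libraries, with the scale ending at 1.5 in either direction. Most rows are blue in the 3 vcaf columns, the rows of Fkbp7, Fkbp10, Fkbp14, Kdelr3 and Creb3l1 are reddest in the 3 m2cafpos columns, and Xbp1 is blue in m2cafpos and icaf.

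The median log2 fold change of the members was 0.59 in m2cafpos against vcaf, where that of all genes was -0.51. In m2cafpos against m2cafneg the medians were 0.10 for the members and -0.23 for all genes, and in m2cafpos against icaf 0.046 and -0.11. Fold changes are differences of log2(CPM + 1), first population minus second. The median of all genes was off 0, and median-of-ratios scaling moved it by 0.24 in m2cafpos against m2cafneg, 0.11 against icaf and 0.48 against vcaf. With that scaling 17 members were higher and 1 lower in m2cafpos against m2cafneg (8.31% and 8.53% of all genes), 11 and 1 against icaf (11.5% and 9.75%), and 32 and 1 against vcaf (23.2% and 22.9%). In m2cafneg against icaf 2 were higher and 6 lower (16.5% and 13.5% of all genes), where 5 were higher and 3 lower on the CPM scale. Both counts of lower members are near the shares of all genes. Median-of-ratios scaling moved the all-gene median by -0.12 there, by 0.24 in m2cafneg against vcaf, and by 0.37 in icaf against vcaf. Under this scaling 30 members were higher and 0 lower in m2cafneg against vcaf (15.6% and 9.87% of all genes), and 31 and 2 in icaf against vcaf (24.2% and 24.4%).

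With the mouse as a block, 8 members were higher and 1 lower in m2cafpos against m2cafneg (4.68% and 28.5% of all genes), 8 and 1 against icaf (10.4% and 18%), and 26 and 3 against vcaf (13.2% and 57.9%). The block gave 6 higher and 5 lower in m2cafneg against icaf (24.5% and 10.3%), 24 and 2 in m2cafneg against vcaf (12.7% and 32.2%), and 26 and 5 in icaf against vcaf (14.8% and 48.5%). With edgeR on reads recovered from the CPM values, 15 members were higher and 1 lower in m2cafpos against m2cafneg (6.16% and 7.35% of all genes), 10 and 1 against icaf (10.7% and 9.21%), and 32 and 1 against vcaf (22.3% and 22.4%). By edgeR 2 were higher and 5 lower in m2cafneg against icaf (15.8% and 11.6%), 29 and 0 in m2cafneg against vcaf (15.7% and 8.61%), and 30 and 2 in icaf against vcaf (23.3% and 23.9%).

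**Figure D2:**
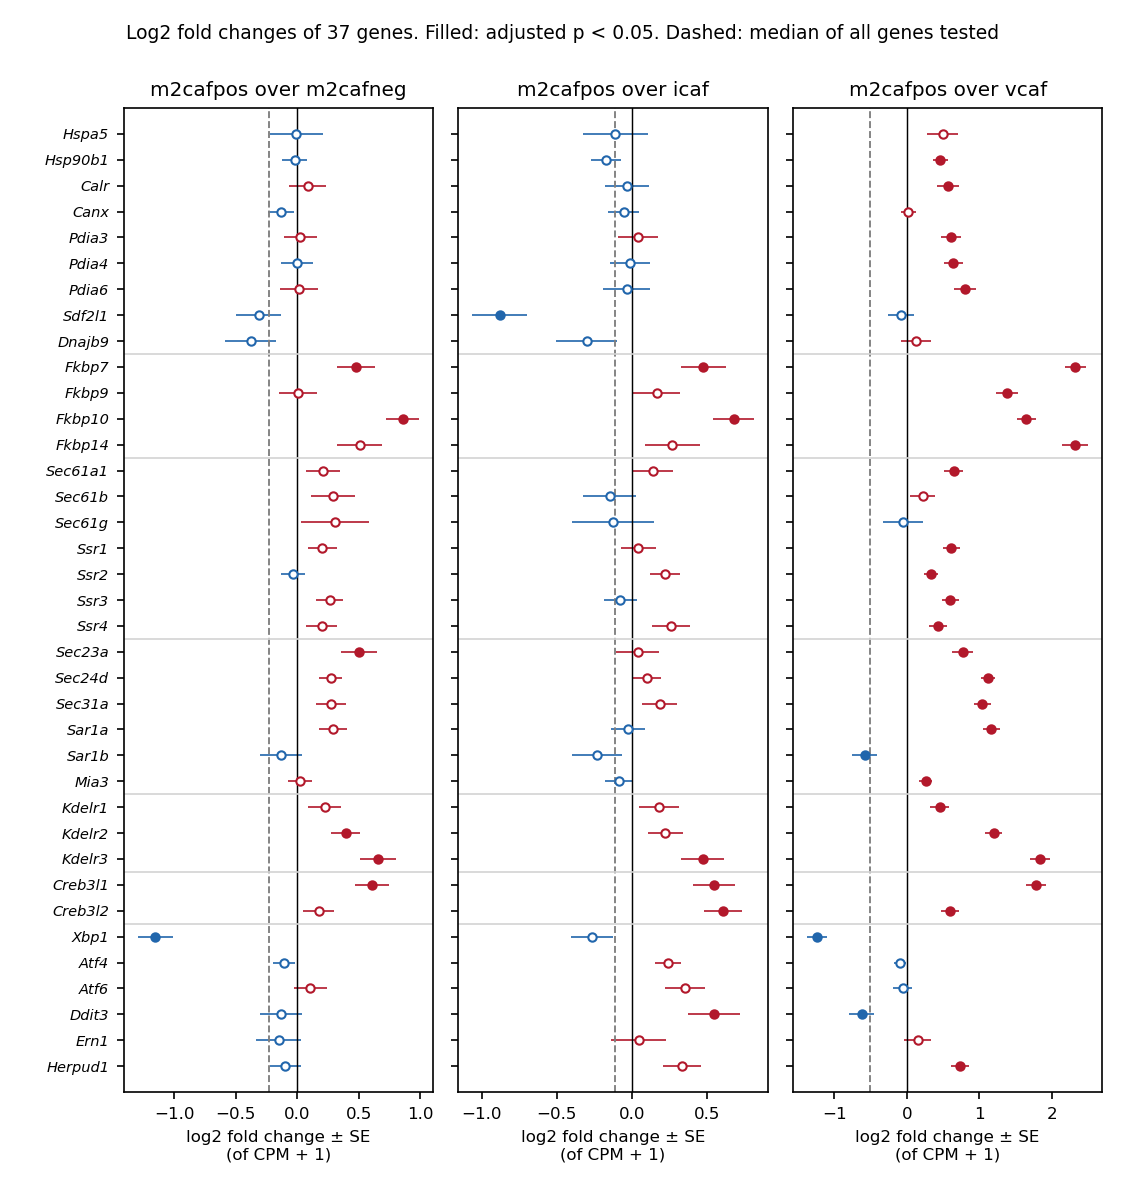
Log2 fold change of CPM + 1 (horizontal axis, ± SE) for 37 genes in m2cafpos over m2cafneg, over icaf and over vcaf, with red for values above 0, blue for values below 0, filled points for an adjusted p below 0.05 and a dashed line at the median of all genes tested. In the right panel 25 genes lie above 0 and 3 below it with filled points, while the left and middle panels hold 6 and 1 each.

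Promoter sequences are shown for 3 members because they hold DNA motifs of the unfolded protein response and because Kdelr3 was called in m2cafpos against m2cafneg while Hspa5 and Sec24d were not. The ER stress response element (ERSE, CCAAT and CCACG with 9 bases between them) is bound by NF-Y with ATF6, ERSE-II (ATTGG and CCACG with 1 base between them) is a related element, and the unfolded protein response element (UPRE, TGACGTGG) is bound by XBP1 and by factors of the ATF6 and CREB3 type. RefSeq promoters on GRCm38.p6 run over 250 bases before and 50 after a start, and were found for 31 of the 37 members (33 promoters). The other 6, Fkbp10, Sec61a1, Ssr2, Kdelr2, Creb3l1 and Atf6, had none and were not searched, so motifs in them are unknown. Of these, Fkbp10, Kdelr2 and Creb3l1 were called higher in m2cafpos against m2cafneg. Both strands were searched, and no match overlapped another. The 250 bases before the RefSeq start follow for Hspa5 (chr2:34771840-34772089, + strand), Kdelr3 (chr15:79516158-79516407, + strand) and Sec24d (chr3:123267246-123267495, + strand), 5′ to 3′, with capitals for the ERSE of Hspa5 and the UPRE of the other 2 genes, which in Kdelr3 lies on the opposite strand. GENCODE places the start of Hspa5 and of Sec24d inside these windows.
Hspa5: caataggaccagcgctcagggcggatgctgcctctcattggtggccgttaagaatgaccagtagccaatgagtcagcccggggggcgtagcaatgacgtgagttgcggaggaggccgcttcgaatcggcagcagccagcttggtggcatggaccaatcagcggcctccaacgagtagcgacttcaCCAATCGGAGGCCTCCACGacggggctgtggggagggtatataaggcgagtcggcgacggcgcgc
Kdelr3: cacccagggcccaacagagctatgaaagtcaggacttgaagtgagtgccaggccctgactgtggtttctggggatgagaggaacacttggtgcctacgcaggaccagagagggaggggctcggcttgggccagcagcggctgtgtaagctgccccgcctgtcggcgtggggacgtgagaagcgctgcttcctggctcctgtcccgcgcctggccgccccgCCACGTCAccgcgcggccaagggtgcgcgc
Sec24d: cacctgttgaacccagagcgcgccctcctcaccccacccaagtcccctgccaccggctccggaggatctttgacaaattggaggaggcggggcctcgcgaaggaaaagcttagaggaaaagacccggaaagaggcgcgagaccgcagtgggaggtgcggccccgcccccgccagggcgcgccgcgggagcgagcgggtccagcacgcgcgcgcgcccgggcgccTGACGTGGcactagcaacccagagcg

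An ERSE was present in 0.119% of the 32851 mouse promoters in the RefSeq table and in those of 5 members, all chaperone or oxidoreductase genes. It began 65 bases before the start in Hspa5, 98 in Pdia6, 145 in Canx and 162 in Calr (opposite strand), and 212 and 107 before the start in Hsp90b1, the second on the opposite strand. ERSE-II was present in 0.0365% of promoters and in that of Herpud1, 52 bases before the start. The UPRE was present in 0.676% of promoters and in 3 members, beginning 30 bases before the start in Kdelr3, 26 before it in Sec24d and at base 7 of the transcript in Sec23a. The CARE motif (TGATGNAAT), bound by ATF4, was present in 0.965% of promoters and in 0 members. In m2cafpos against m2cafneg, the 5 genes with an ERSE had log2 fold changes between -0.13 and 0.083 and 0 of them passed the test. Of the 3 genes with a UPRE, Kdelr3 and Sec23a were higher and Sec24d was not called (0.27), where 3.51% of all genes were higher. The call of Sec23a ended without m2cafpos 30 or 31 or m2cafneg 30 or 31. Sec24d was called with the mouse as a block (limma adjusted p = 0.0394) and with median-of-ratios scaling (0.55, limma adjusted p = 0.0054). With 3 and 5 genes, the motifs cannot be compared. A match describes these letters only, and no binding was measured.

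Luminal chaperones and oxidoreductases fold and cross-link chains as they enter the ER. Counts by role, here and below, are to be read against the shares of all genes. In m2cafpos 3.51% were higher and 22.6% lower against m2cafneg, 8.86% and 15% against icaf, and 12.4% and 55.5% against vcaf. Of 9 such genes, 0 passed the test in m2cafpos against m2cafneg, with log2 fold changes between -0.38 in Dnajb9 and 0.083 in Calr. Against icaf 1 of 9 was lower, and against vcaf 5 were higher in m2cafpos, with Pdia6 at 0.81, Pdia4 at 0.64, Pdia3 at 0.61, Calr at 0.57 and Hsp90b1 at 0.46. With the epithelial marker covariate all 5 of these calls ended (adjusted p of 0.101, 0.103, 0.199, 0.153 and 0.383 in the same order). The marker sums of m2cafpos and vcaf do not overlap, so the covariate and the gate cannot be told apart. Pdia3, Pdia4 and Pdia6 encode protein disulphide isomerases, Calr and Canx the lectin chaperones calreticulin and calnexin, and Hsp90b1 the HSP90 protein of the ER. Canx had the narrowest spread of all members, with a ratio of 1.11 between its highest and lowest population means.

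Hspa5 (ENSMUSG00000026864, chromosome 2, 34771970 to 34777547, on GRCm38 in the GENCODE annotation, as for all genes that follow), which encodes the chaperone BiP, was the most abundant member, at 3236, 3479 and 2507 CPM in m2cafpos, 3349, 3474 and 2469 in m2cafneg, 3897, 3638 and 2502 in icaf, and 2378, 1831 and 2312 in vcaf. In m2cafpos, m2cafneg and icaf the library of mouse 31 was the lowest of the 3, and libraries of these populations overlapped, whereas all 3 vcaf libraries lay below those of every other population. The log2 fold change was -0.0084 (SE 0.21, limma adjusted p = 0.982) in m2cafpos against m2cafneg and 0.50 (SE 0.21, adjusted p = 0.057) against vcaf. With the mouse as a block the call against vcaf was made (adjusted p = 0.0201), as it was in m2cafneg against vcaf (0.50, adjusted p = 0.0816 without and 0.0304 with the block). Median-of-ratios scaling gave both calls too, at 1.05 in m2cafpos (adjusted p = 0.00236) and 0.78 in m2cafneg against vcaf (adjusted p = 0.0232). Hspa5 was higher in icaf than in vcaf by 0.61 (limma adjusted p = 0.0279), a call that ended without icaf 27 (adjusted p = 0.102), icaf 30 (0.0877) or vcaf 30 (0.106). With epithelial markers as a covariate this last value was -0.12, but the marker sums of icaf and vcaf do not overlap, so covariate and gate cannot be told apart.

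Sdf2l1 (ENSMUSG00000022769, chromosome 16, 17130138 to 17132383), which encodes a subunit of chaperone complexes in the ER, had 98.9, 99.4 and 67.8 CPM in m2cafpos, 114, 124 and 91.1 in m2cafneg, 192, 173 and 127 in icaf, and 100.3, 83.2 and 94.5 in vcaf. The 3 icaf libraries were the highest and did not overlap with any other library. It fell by 0.88 on the log2 scale in m2cafpos against icaf (SE 0.18, limma adjusted p = 0.00383), the one chaperone called in that comparison. Against m2cafneg its value was -0.32 (adjusted p = 0.223). With the epithelial covariate it was called lower in m2cafpos, at -0.94 against m2cafneg (adjusted p = 0.0444) and -0.82 against vcaf (adjusted p = 0.0207), where without it the value against vcaf was -0.080. It was lower in m2cafneg than in icaf too, at -0.56 (adjusted p = 0.0357), a call that ended without m2cafneg 27 or 31 or icaf 27 or 30 (adjusted p = 0.0577 to 0.143). The co-chaperone gene Dnajb9 was called in none of the 3 comparisons of m2cafpos, with values from -0.38 to 0.13.

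The FK506-binding prolyl isomerases of the ER, which act on proline-rich chains such as procollagen, include the 2 members with the largest ratios between populations. All 4 were higher in m2cafpos than in vcaf, at 1.38 to 2.33 on the log2 scale, and also in m2cafneg and in icaf against vcaf. Fkbp10 (ENSMUSG00000001555, chromosome 11, 100415697 to 100424824), which encodes FKBP65, a collagen chaperone altered in a human form of brittle bone disease, had 806, 747 and 796 CPM in m2cafpos, 525, 387 and 396 in m2cafneg, 560.5, 438 and 474 in icaf, and 271, 248 and 228 in vcaf. The m2cafpos libraries lay above all others and the vcaf libraries below all others. It was higher in m2cafpos by 0.86 (SE 0.14, limma adjusted p = 0.0021) against m2cafneg, by 0.68 (SE 0.14, adjusted p = 0.00284) against icaf and by 1.65 (SE 0.14, adjusted p = 8.91e-07) against vcaf.

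Fkbp7 (ENSMUSG00000002732, chromosome 2, 76663044 to 76673116), which encodes FKBP23, was measured at 125, 144 and 126 CPM in m2cafpos, 110.3, 88.9 and 85.3 in m2cafneg, 101, 94.2 and 88.6 in icaf, and 24.3, 32.4 and 20.8 in vcaf. The m2cafpos libraries were again the highest 3, and the vcaf libraries the lowest 3, and the ratio of 5.11 between highest and lowest population means was the largest of any member. The log2 fold change in m2cafpos was 0.48 (SE 0.15, adjusted p = 0.0361) against m2cafneg, 0.48 (SE 0.15, adjusted p = 0.037) against icaf and 2.33 (SE 0.15, limma adjusted p = 1.07e-07) against vcaf. Against m2cafneg the call ended without any of m2cafpos 27, 30 and 31 or m2cafneg 30 and 31 (adjusted p = 0.0662 to 0.121). Against icaf it ended without any 1 of the 6 libraries compared (adjusted p = 0.0617 to 0.122).

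Fkbp14 (ENSMUSG00000038074, chromosome 6, 54577604 to 54597308), which encodes FKBP22, stood at 103, 106 and 102 CPM in m2cafpos, 93.8, 63.3 and 64.98 in m2cafneg, 96.3, 79.1 and 82.9 in icaf, and 26.9, 16.5 and 17.7 in vcaf. The 3 m2cafpos libraries lay above the m2cafneg and icaf ones, which overlapped with each other, and vcaf lay far below. Against vcaf the log2 fold change was 2.33 (SE 0.18, limma adjusted p = 6.18e-07), and against icaf 0.27 (SE 0.18, adjusted p = 0.328). Against m2cafneg it was 0.51 (SE 0.18, adjusted p = 0.0589), and it passed with the mouse as a block (adjusted p = 0.0115) and with median-of-ratios scaling (0.78, adjusted p = 0.0138). Fkbp9, which encodes FKBP63, was not called against m2cafneg (0.0071) or icaf (0.16), and was higher in m2cafpos than in vcaf by 1.38.

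The translocon and the TRAP complex beside it, which help nascent chains cross the ER membrane, gave few calls among m2cafpos, m2cafneg and icaf. Of 7 genes, 0 passed the test in m2cafpos against m2cafneg (-0.034 to 0.31) or against icaf (-0.15 to 0.26). Of all genes 3.51% were higher and 22.6% lower against m2cafneg, and 8.86% and 15% against icaf, so 0 higher genes is near these shares. Against vcaf 5 were higher, namely Sec61a1, which encodes the channel subunit (0.64), and the TRAP genes Ssr1 (0.62), Ssr3 (0.60), Ssr4 (0.43) and Ssr2 (0.34). All 5 calls ended with the epithelial covariate (adjusted p of 0.0591, 0.0948, 0.0906, 0.300 and 0.146 in the same order), which cannot be told apart from the gate here. The small subunit genes Sec61b and Sec61g were called in none of the 6 comparisons on the CPM scale without the block, but with the mouse as a block Sec61b was lower in m2cafneg than in icaf (-0.44, adjusted p = 0.0177) and higher in icaf than in vcaf (0.36, adjusted p = 0.0238). Ssr3 was lower in m2cafneg than in icaf (-0.34, limma adjusted p = 0.0375), a call that ended without m2cafpos 31, m2cafneg 30 or 31, or icaf 27 or 31 (adjusted p = 0.053 to 0.140). With median-of-ratios scaling 5 of the 7 were higher in m2cafpos against m2cafneg, namely Sec61a1 (0.49), Sec61b (0.57), Ssr1 (0.48), Ssr3 (0.54) and Ssr4 (0.48), with adjusted p of 0.0281, 0.0491, 0.014, 0.0075 and 0.0277 in the same order.

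Genes of the COPII coat, which forms transport carriers at ER exit sites, were higher in m2cafpos than in vcaf with 1 exception. Of 6 genes 5 were higher, with Sar1a, a GTPase that starts coat assembly, at 1.17, Sec24d at 1.12, the outer coat gene Sec31a at 1.04, Sec23a at 0.77 and Mia3 at 0.26. With the epithelial covariate, which cannot be told apart from the gate here, the calls of Sec23a (adjusted p = 0.172) and Mia3 (adjusted p = 0.468) ended. The exception was Sar1b (ENSMUSG00000020386, chromosome 11, 51763687 to 51791925), the second GTPase of the pair, at 56.2, 46.9 and 44.9 CPM in m2cafpos, 64.6, 44.4 and 54.6 in m2cafneg, 68.8, 60.97 and 45.8 in icaf, and 81.7, 72.5 and 68.6 in vcaf. The vcaf libraries lay above those of m2cafpos and m2cafneg, and 1 icaf library lay just above the lowest vcaf one. In m2cafpos it fell by 0.58 on the log2 scale against vcaf (limma adjusted p = 0.00809), a call lost under median-of-ratios scaling (-0.035, adjusted p = 0.884). In m2cafneg against vcaf it stood at -0.45 (adjusted p = 0.04995), a call that ended with that scaling (-0.18) and without any of m2cafpos 27, 30 and 31, m2cafneg 30 and 31, icaf 30 or vcaf 27, 30 and 31 (adjusted p = 0.0538 to 0.183). Its value was -0.35 in icaf against vcaf (adjusted p = 0.0843, and 0.0222 with the mouse as a block). Sar1a and Sar1b are close paralogs, so reads shared between them may have been split.

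Sec24d (ENSMUSG00000039234, chromosome 3, 123267455 to 123365641), a cargo-binding coat subunit needed for collagen export in zebrafish, had 237, 242 and 248 CPM in m2cafpos, 224, 195 and 186 in m2cafneg, 241, 218 and 219.9 in icaf, and 115, 102 and 115 in vcaf. All m2cafpos libraries exceeded the m2cafneg ones, m2cafpos and icaf overlapped, and every vcaf library was lower by a wide margin. The log2 fold change was 1.12 (SE 0.096, limma adjusted p = 1.31e-06) against vcaf and 0.27 (SE 0.096, adjusted p = 0.0559) against m2cafneg. The difference from m2cafneg passed with the mouse as a block (adjusted p = 0.0394) and with median-of-ratios scaling (0.55, adjusted p = 0.0054). Sec23a (ENSMUSG00000020986, chromosome 12, 58958383 to 59012017), its partner in the inner coat, had 125, 161 and 144 CPM in m2cafpos, 118, 93.8 and 92.9 in m2cafneg, 166, 127 and 127 in icaf, and 90.9, 73.2 and 87.4 in vcaf. The m2cafpos libraries lay above those of m2cafneg and overlapped with those of icaf. Its value was 0.50 (SE 0.15, adjusted p = 0.0269) against m2cafneg, a call that ended without m2cafpos 30 or 31 or m2cafneg 30 or 31 (adjusted p = 0.0668 to 0.0962), and 0.039 against icaf. Sec23a was lower in m2cafneg than in icaf (-0.46, adjusted p = 0.0321), which ended without m2cafneg 30 or 31 or icaf 27 (adjusted p = 0.0889 to 0.140).

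Mia3 (ENSMUSG00000056050, chromosome 1, 183326725 to 183369553), which encodes TANGO1, the receptor that loads bulky procollagen into COPII carriers, had a ratio of 1.27 between its highest and lowest population means. It was measured at 104, 112 and 106 CPM in m2cafpos, 102, 113 and 103 in m2cafneg, 114, 112 and 116 in icaf, and 83.01, 101 and 85.5 in vcaf. Libraries of m2cafpos and m2cafneg overlapped, icaf lay just above m2cafpos, and vcaf lay below all others. Its log2 fold change was 0.021 (SE 0.094, limma adjusted p = 0.893) in m2cafpos against m2cafneg, where collagen chains took 16.8% and 9.19% of reads on average, and 0.26 (SE 0.094, adjusted p = 0.0258) against vcaf. Against m2cafneg it stood at 0.30 with median-of-ratios scaling (adjusted p = 0.0666) and was called higher by DESeq2 (0.31, adjusted p = 0.0397). The call against vcaf ended without m2cafpos 30 (adjusted p = 0.084), m2cafpos 31 (0.0549), vcaf 27 (0.0968) or vcaf 31 (0.0709). In m2cafneg against vcaf its value was 0.24 (adjusted p = 0.0604, and 0.0434 with the block), and with median-of-ratios scaling it was called (0.51, adjusted p = 0.00229).

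All 3 KDEL receptor genes were higher in m2cafpos than in vcaf, and 2 of them than in m2cafneg. Kdelr3 (ENSMUSG00000010830, chromosome 15, 79516411 to 79527739), whose receptor binds the retrieval signal of luminal proteins, had 344, 362 and 295 CPM in m2cafpos, 238, 218 and 181 in m2cafneg, 289, 209.7 and 227 in icaf, and 103, 90.3 and 84.2 in vcaf. Every m2cafpos library exceeded every library of the other populations, and every vcaf library lay below the rest. It was higher in m2cafpos by 0.65 (SE 0.14, limma adjusted p = 0.00816) against m2cafneg, by 0.47 (SE 0.14, adjusted p = 0.0316) against icaf and by 1.84 (SE 0.14, adjusted p = 6.19e-07) against vcaf. The call against icaf ended without m2cafpos 27 or 30 or icaf 30 or 31 (adjusted p = 0.0892 to 0.130). Kdelr2, the most abundant of the 3 per length (613 CPM per kb of exon in m2cafpos, against 237 for Kdelr3 and 53.9 for Kdelr1), was higher by 0.39 against m2cafneg (limma adjusted p = 0.028). That call ended without any of m2cafpos 27, 30 and 31 or m2cafneg 30 and 31 (adjusted p = 0.0527 to 0.0853). Kdelr1 was called against vcaf only among the comparisons of m2cafpos (0.45, a call that ended with the epithelial covariate at an adjusted p of 0.271), with 0.22 against m2cafneg and 0.18 against icaf.

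The CREB3-family factors are made as ER membrane proteins and released by cleavage in the Golgi. Creb3l1 (ENSMUSG00000027230, chromosome 2, 91982328 to 92024502), which encodes OASIS and drives type I collagen and secretory genes in bone-forming cells of the mouse, had 113, 118 and 105 CPM in m2cafpos, 75.3, 87.2 and 59.9 in m2cafneg, 70.2, 80.8 and 78.1 in icaf, and 28.8, 37.02 and 30.1 in vcaf. The m2cafpos libraries were the highest 3 and the vcaf libraries the lowest 3, while m2cafneg and icaf overlapped. The log2 fold change was 0.60 (SE 0.14, limma adjusted p = 0.00983) in m2cafpos against m2cafneg, 0.55 (SE 0.14, adjusted p = 0.0123) against icaf and 1.78 (SE 0.14, adjusted p = 5.83e-07) against vcaf. The call against icaf ended without icaf 27 (adjusted p = 0.0547). Creb3l2 (ENSMUSG00000038648, chromosome 6, 37327255 to 37442146), which encodes BBF2H7 and promotes secretion in mouse cartilage, had 98.8, 97.4 and 120.2 CPM in m2cafpos, 96.4, 80.6 and 103 in m2cafneg, 68.7, 66.3 and 70.7 in icaf, and 73.7, 74.95 and 60.3 in vcaf. The icaf libraries fell within the range of vcaf, and m2cafpos overlapped with m2cafneg. It was higher in m2cafpos by 0.61 (SE 0.12, adjusted p = 0.00344) against icaf and 0.59 (SE 0.12, adjusted p = 0.00125) against vcaf, and its value against m2cafneg was 0.17. With median-of-ratios scaling it was called higher against m2cafneg too (0.45, limma adjusted p = 0.0223). In m2cafneg it was higher than in icaf by 0.43 (adjusted p = 0.0201), a call lost under median-of-ratios scaling (0.29, adjusted p = 0.0785) and without m2cafneg 27 or 31 or icaf 27 or 30 (adjusted p = 0.0557 to 0.0852).

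**Figure D3:**
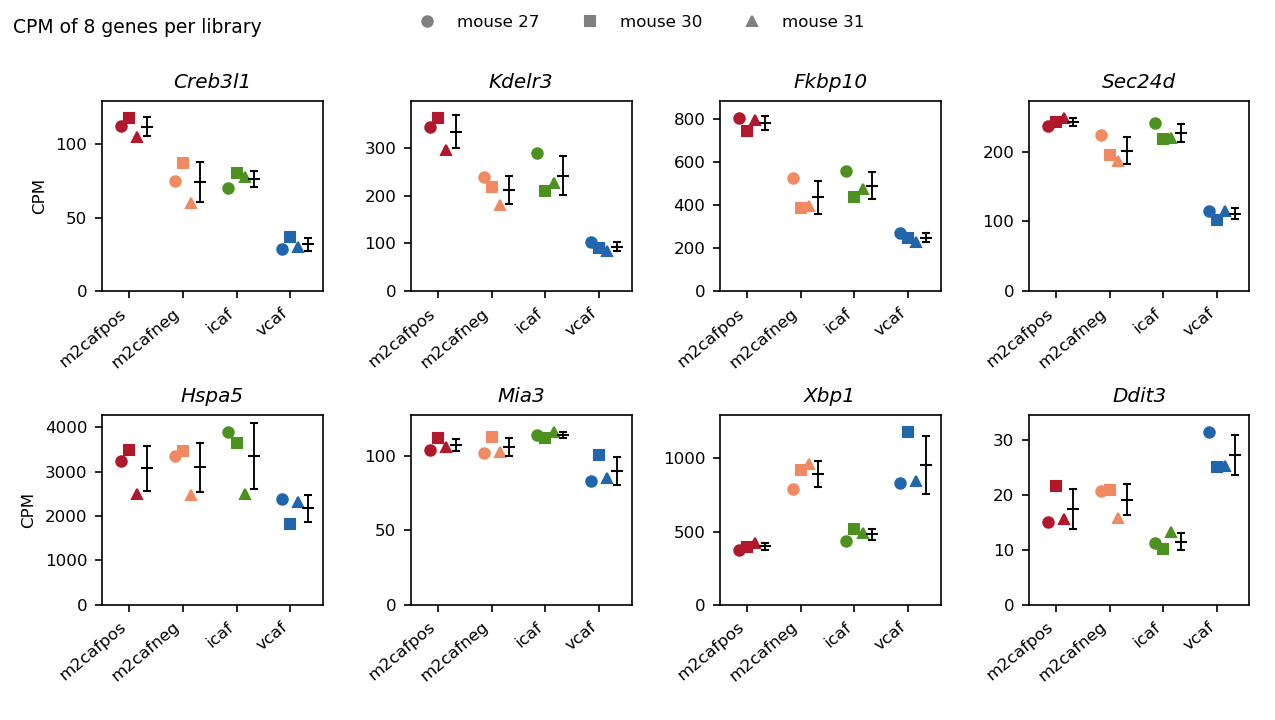
CPM of 8 genes in each library (vertical axes from 0), with symbols for the 3 mice, colours for the 4 populations and the mean ± SD (n = 3) beside each group. Creb3l1, Kdelr3 and Fkbp10 are highest in the 3 m2cafpos libraries, Hspa5 and Mia3 overlap between m2cafpos and m2cafneg, and Xbp1 is lowest in the 3 m2cafpos libraries.

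Sensors and factors of the unfolded protein response were called in both directions. Of 6 genes, 1 was lower and 0 higher in m2cafpos against m2cafneg (22.6% and 3.51% of all genes). Against icaf 1 was higher (8.86% of all genes), and against vcaf 1 was higher and 2 lower (12.4% and 55.5% of all genes). Counts in so small a group cannot be set apart from these shares. Xbp1 (ENSMUSG00000020484, chromosome 11, 5520659 to 5525893), the transcription factor gene whose mRNA is spliced by Ern1, had 377, 397 and 422 CPM in m2cafpos, 793, 917 and 963 in m2cafneg, 437, 514 and 488 in icaf, and 833, 1179.9 and 848 in vcaf. The m2cafpos libraries were the lowest 3, the icaf libraries came next, and m2cafneg and vcaf lay above both and overlapped with each other. Xbp1 fell by 1.16 on the log2 scale in m2cafpos against m2cafneg (SE 0.14, limma adjusted p = 0.00068) and by 1.24 against vcaf (adjusted p = 1.49e-05), and its value against icaf was -0.27 (adjusted p = 0.207). It fell by 0.97 in icaf against vcaf (adjusted p = 0.000103).

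The epithelial marker sums given above were also highest in m2cafneg and vcaf. In m2cafpos against m2cafneg 18 of the 20 epithelial markers were lower and 0 higher, and the most abundant was the milk protein gene Csn3 (875 CPM in m2cafpos, 4222 in m2cafneg, 920 in icaf and 5252 in vcaf). With the log2 sum of these markers as a covariate, Xbp1 stood at -1.08 in m2cafpos against m2cafneg (adjusted p = 0.0434) and at -1.15 against vcaf (adjusted p = 0.00754). Xbp1 was higher in m2cafneg than in icaf by 0.89 (adjusted p = 0.000669), a call that ended with the covariate (0.82, adjusted p = 0.0723). The table counts reads per gene, so the spliced and unspliced forms of Xbp1 were not separated.

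Ddit3 (ENSMUSG00000025408, chromosome 10, 127290774 to 127296288), which encodes the stress factor CHOP, was a weakly expressed member, at 15.2, 21.6 and 15.7 CPM in m2cafpos, 20.7, 21.03 and 15.9 in m2cafneg, 11.2, 10.2 and 13.2 in icaf, and 31.6, 25.2 and 25.2 in vcaf. The vcaf libraries were the highest 3 and the icaf libraries the lowest 3, with m2cafpos and m2cafneg overlapping between them. It was higher in m2cafpos than in icaf by 0.55 (SE 0.17, limma adjusted p = 0.0349), a call that ended without m2cafpos 30 or 31 or icaf 27 or 30 (adjusted p = 0.0538 to 0.143), and in m2cafneg than in icaf by 0.68 (SE 0.17, adjusted p = 0.0101). Against vcaf it was lower in m2cafpos, at -0.63 (SE 0.17, adjusted p = 0.00641), which median-of-ratios scaling brought to -0.092 (adjusted p = 0.709), and lower in icaf, at -1.18 (SE 0.17, adjusted p = 0.000106). The value in m2cafneg against vcaf was -0.49 (SE 0.17, adjusted p = 0.0401), a call that ended without any 1 of the 6 libraries compared or icaf 27 (adjusted p = 0.0501 to 0.143) and with median-of-ratios scaling (-0.22).

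Atf4 (ENSMUSG00000042406, chromosome 15, 80255184 to 80257541), the main factor of the integrated stress response, had 112, 111 and 105 CPM in m2cafpos, 122, 117 and 116 in m2cafneg, 91.1, 90.3 and 96.03 in icaf, and 109.7, 128 and 113 in vcaf. The icaf libraries were the lowest 3, and the m2cafpos libraries lay just under those of m2cafneg. Its values in m2cafpos were -0.11 (SE 0.086, adjusted p = 0.376) against m2cafneg, 0.24 (SE 0.086, adjusted p = 0.0638) against icaf and -0.093 (SE 0.086, adjusted p = 0.352) against vcaf. With median-of-ratios scaling Atf4 was called higher in m2cafpos than in vcaf (0.46, limma adjusted p = 0.0016) and icaf (0.38, adjusted p = 0.0124). That scaling also gave a call in m2cafneg against vcaf (0.29, limma adjusted p = 0.0386). Atf4 was higher in m2cafneg than in icaf by 0.35 (SE 0.086, adjusted p = 0.00962), and lower in icaf than in vcaf, at -0.33 (SE 0.086, adjusted p = 0.00549). With that scaling the first call ended (0.21) and the second value turned to 0.086. Atf6 and Ern1 were not called in any comparison of m2cafpos with limma and no block, and with the mouse as a block Atf6 was higher in m2cafpos than in icaf (0.35, adjusted p = 0.0465). With median-of-ratios scaling both were called higher in m2cafpos than in vcaf, Atf6 at 0.49 (adjusted p = 0.00898; -0.055 on the CPM scale) and Ern1 at 0.63 (adjusted p = 0.0106; 0.15 on the CPM scale). Atf6 was lower in icaf than in vcaf (-0.41, adjusted p = 0.0182), a call lost under median-of-ratios scaling (-0.0025) and without icaf 30 (adjusted p = 0.0691) or vcaf 27 (0.0565). Ern1 was the member with the lowest level per length, at 0.854 CPM per kb in m2cafpos, 0.965 in m2cafneg, 0.828 in icaf and 0.774 in vcaf. Herpud1, a gene of ER-associated degradation, was higher in m2cafpos than in vcaf by 0.73 (adjusted p = 0.000324, and 0.131 with the epithelial covariate). Against icaf it stood at 0.33 (adjusted p = 0.0766, and 0.0357 with the mouse as a block). It was higher in m2cafneg than in icaf (0.43, adjusted p = 0.0225), a call lost under median-of-ratios scaling (0.29) and without m2cafneg 30 or icaf 27 or 31 (adjusted p = 0.0526 to 0.0774).

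The 6 higher members in m2cafpos against m2cafneg were Fkbp10, Kdelr3, Creb3l1, Sec23a, Fkbp7 and Kdelr2. Without m2cafpos 30, m2cafpos 31, m2cafneg 30 or m2cafneg 31, each left out alone, 3 members were higher. With the epithelial marker covariate 0 were higher and 2 lower (Xbp1 and Sdf2l1). The marker sums of both gates do not overlap, so that the covariate and the gate cannot be told apart. Per length, the levels of the members in m2cafpos spread from 0.854 CPM per kb in Ern1 to 727 in Hspa5, with Kdelr2 (613) and Pdia3 (599) next below Hspa5.

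Within each mouse, the order of the populations was compared with that of collagen load, on the CPM scale only. Median-of-ratios size factors ran from 0.850 in m2cafpos 30 to 1.28 in vcaf 27, so these orders can depend on the scale. They were not counted under other scalings. In all 3 mice m2cafpos was the highest for 10 of the 37 members and for 4.62% of all genes. The 10 were Creb3l1, Creb3l2, Fkbp7, Fkbp10, Fkbp14, Kdelr1, Kdelr2, Kdelr3, Sec31a and Ssr4. The reverse, lowest in m2cafpos in all 3 mice, was met by Xbp1 alone among the members and by 21.2% of all genes. Lowest in vcaf in all 3 mice were 24 members and 10.1% of all genes, and highest in vcaf were Ddit3 and Sar1b, with 39.3% of all genes. The full collagen order m2cafpos, m2cafneg, icaf, vcaf was met in all 3 mice by 0 members and 1.05% of all genes. The reverse order was met by 0 members and 1.52% of all genes.

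Sums by role overlapped between gates for some roles and not for others. The 9 chaperone genes summed to 7439 to 9008 CPM in m2cafpos, 7607 to 8874 in m2cafneg, 7476 to 9979 in icaf and 4994 to 6196 in vcaf, so that the first 3 overlapped. The 4 FK506-binding genes summed to 1524 to 1631 CPM in m2cafpos, 976 to 1307 in m2cafneg, 1117 to 1238 in icaf and 460.4 to 564 in vcaf. The 3 KDEL receptor genes summed to 1471 to 1643 CPM in m2cafpos, 1095 to 1227 in m2cafneg, 1208 to 1455 in icaf and 598 to 705 in vcaf. The m2cafpos libraries lay above all others in both of these groups. The 6 unfolded protein response genes summed to 884 to 1014 CPM in m2cafpos and 1346 to 1539 in m2cafneg. Their icaf and vcaf sums were 853 to 956 and 1231 to 1590 CPM. Translocon and COPII sums in m2cafpos (1647 to 1746 and 1435 to 1596 CPM) overlapped with icaf (1511 to 1823 and 1356 to 1579). With median-of-ratios scaling m2cafpos lay above all others in both, at 1924 to 2039 and 1667 to 1879. The highest icaf values were then 1911 and 1655. The 2 CREB3-family genes summed to 212 to 226 CPM in m2cafpos, 163 to 172 in m2cafneg, 139 to 149 in icaf and 90.5 to 112 in vcaf, which followed the full collagen order with no overlap on the CPM scale. Neither of the 2 genes did so alone. Libraries of m2cafneg and icaf overlapped in Creb3l1, and those of icaf fell within the range of vcaf in Creb3l2. Divided by median-of-ratios size factors the CREB3-family sums were 246 to 263 in m2cafpos, 148 to 170 in m2cafneg, 146 to 158 in icaf and 71.97 to 90.1 in vcaf, and m2cafneg and icaf overlapped. Each population forms its own cluster in these values, so no correlation over the 12 libraries is given.

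**Figure D4:**
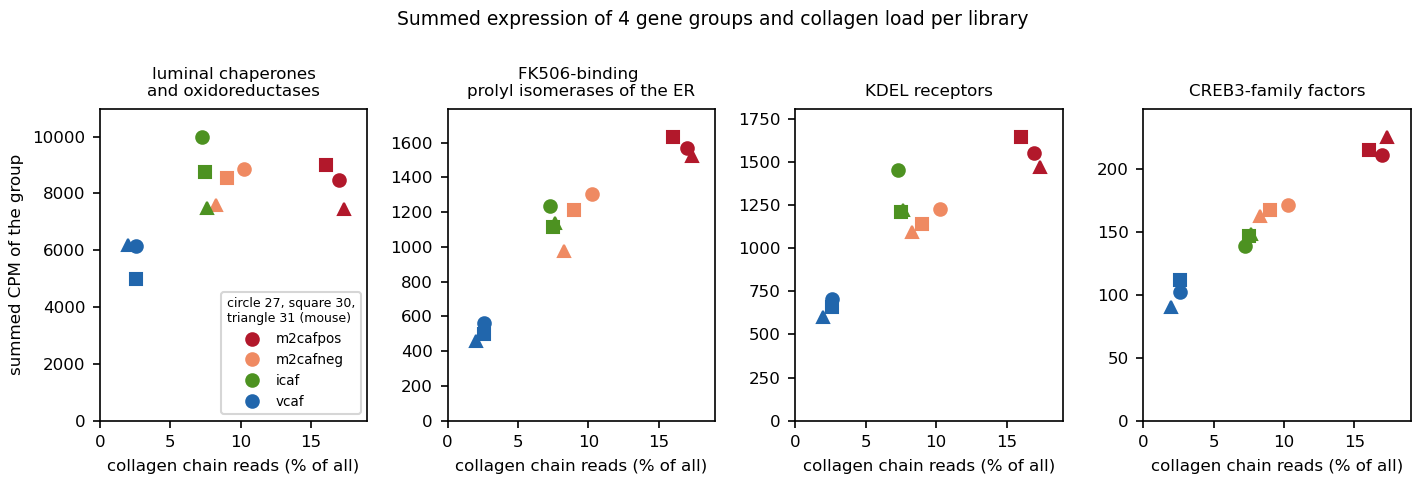
Summed CPM of 4 groups of members (vertical axes from 0) against the share of reads from 44 collagen chain genes (horizontal axis, in percent) in each of 12 libraries, with colours for populations and symbols for mice. The chaperone sums overlap among m2cafpos, m2cafneg and icaf, whereas the CREB3-family sums of the 4 populations do not overlap on this CPM scale.

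Among libraries of the same population, the relation to collagen load was tested as a slope. The slope on log2 collagen load was fitted with limma beside the 4 population means, and it passed the test for 0 of 37 members and for 0% of all genes. The unadjusted test of limma passed 0.05 for 2 members, Calr at -0.97 (SE 0.37, limma adjusted p = 0.729) and Fkbp7 at 0.94 (SE 0.40, limma adjusted p = 0.740) on the log2 scale per doubling of collagen load. The slope was above 0 for 24 of 37 members, with a median of 0.13 (-0.076 over all genes). Neither of these 2 counts was made over all genes. As 0% of all genes passed, the test does not set the members apart from other genes. Collagen load doubled within no population (8.29% to 10.3% of reads in m2cafneg, 7.26% to 7.65% in icaf), so values per doubling are extrapolated. Differences among the 3 mice, with population in the fit, passed the limma test for 0 of 37 members and for 4.71% of all genes, with Hspa5 at -0.37 in mouse 31 against mouse 27 (limma adjusted p = 0.264).

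Other genes of the same pathways, listed by function beside the members, were counted in the same fits. Their counts are to be read against the shares of all genes given above, 3.51% higher and 22.6% lower in m2cafpos against m2cafneg and 12.4% higher and 55.5% lower against vcaf. Of 26 other ER chaperone and oxidoreductase genes, 1 was higher and 1 lower in m2cafpos against m2cafneg, and 13 were higher and 6 lower against vcaf. The 1 of 26 that was higher against m2cafneg is near the share of all genes. It was Pdia5, a disulphide isomerase gene, with 124 ± 19.4 CPM in m2cafpos and 72.2 ± 3.03 CPM in m2cafneg (SD, n = 3 each), and its log2 difference was 0.76 (SE 0.15, limma adjusted p = 0.00452), and the lower one was Ero1lb, an oxidase gene (-0.82). Against vcaf the genes with the smallest adjusted p were Txndc5 (1.47), Pdia5 (1.35), Fkbp11 (1.66) and Uggt2 (1.39), all higher in m2cafpos. Of 26 other genes of translocation, signal peptide cleavage and N-glycosylation, 1 was higher and 2 lower against m2cafneg, and 9 higher and 3 lower against vcaf. The signal peptidase genes Spcs2 (-0.54) and Sec11c (-0.58) were lower in m2cafpos than in m2cafneg, and both calls ended with median-of-ratios scaling (-0.26 and -0.30). The higher one was the glycosylation gene Dad1 (0.30), a call that ended without any of the 6 libraries compared, icaf 31 or vcaf 27 (adjusted p = 0.0536 to 0.158).

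Of 33 other COPII, cargo receptor and COPI genes, 4 were higher and 2 lower in m2cafpos against m2cafneg, and 18 were higher and 7 lower against vcaf. Against m2cafneg the higher ones were Copz2 (0.36), Sec22b (0.37), Sec13 (0.53) and Tmed9 (0.47), of which Sec13 and Tmed9 were named after their values were seen, and the lower ones were Sec24c (-0.36) and Klhl12 (-0.50). Both calls of lower expression ended with median-of-ratios scaling (-0.081 and -0.24). Leaving out m2cafneg 31 ended the calls of Copz2, Sec22b, Sec24c and Klhl12, and m2cafpos 30 those of Copz2, Sec22b and Klhl12 (adjusted p = 0.0566 to 0.0887 over all such losses). Those of Sec22b also ended without m2cafpos 31 or m2cafneg 30, and those of Klhl12 without m2cafpos 27 or m2cafneg 30. Higher than in vcaf were the SNARE gene Sec22b (1.24), the cargo receptor gene Tmed3 (1.47) and the COPI gene Copz2 (1.13). Sec24c, a paralog of Sec24d, was lower (-0.72), which ended with median-of-ratios scaling (-0.16). Of 14 genes of ER-associated degradation, 0 were higher and 3 lower against m2cafneg, near the 22.6% of all genes that were lower, and 5 higher and 4 lower against vcaf (12.4% and 55.5% of all genes). Those against vcaf included the retrotranslocation gene Derl1 (0.94) and the mannosidase-like gene Edem2 (-1.09). The 3 against m2cafneg were Edem2 (-0.56), Os9 (-0.29) and Derl3 (-0.88), and all 3 calls ended with median-of-ratios scaling. The call of Edem2 ended without m2cafpos 27 or m2cafneg 31, that of Os9 without any of the 6 libraries compared, and that of Derl3 without any library of the study except m2cafpos 30 and m2cafneg 27 (adjusted p = 0.0513 to 0.169).

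Of 23 other genes of the unfolded protein and integrated stress responses, 1 was higher, 6 lower and 16 not called in m2cafpos against m2cafneg, and 7 were higher and 14 lower against vcaf. Both counts against m2cafneg are near the 3.51% and 22.6% of all genes, and 12.4% and 55.5% of all genes were higher and lower against vcaf. The higher one against m2cafneg was the CREB3-family gene Creb3 (0.29), named after its value was seen. Atf3, an early stress factor gene, averaged 205 ± 27.6 CPM in m2cafpos and 591 ± 64.1 CPM in m2cafneg (SD, n = 3 each), and its log2 difference was -1.52 (SE 0.21, limma adjusted p = 0.00135). The other genes named as lower in m2cafpos against m2cafneg, each known as an ATF4 target, were the serine synthesis gene Psat1 (-1.62), the pseudokinase gene Trib3 (-1.33) and the asparagine synthetase gene Asns (-0.63), the last of which lost its call with median-of-ratios scaling (-0.36). In the same comparison 18 of 20 epithelial and 11 of 12 macrophage markers were lower. With the epithelial covariate none of the 4 was called, at -1.10 for Atf3, -0.70 for Psat1, -0.49 for Trib3 and -0.54 for Asns. Against vcaf, Ppp1r15a, a phosphatase subunit gene that ends the stress response, was lower (-1.27), and the stress gene Nupr1 was higher (1.71). Creb3l3, a CREB3-family gene known from liver, averaged 33.03 CPM in m2cafpos, 23.9 in m2cafneg, 9.52 in icaf and 0.718 in vcaf (log2 fold change against vcaf 4.31, limma adjusted p = 6.43e-08, n = 3 each). Against m2cafneg its value of 0.45 was not called (limma adjusted p = 0.229).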

How the data were processed

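RNA sequencing libraries of 4 sorted populations from 3 mice were given as CPM per gene, made by the authors with bcl2fastq and DRAGEN on mm10, per the submitters' processing notes; the sources used here give no version, strand setting or treatment of reads with several matches. The table's 55774 lines held 287 repeated identifiers with equal values, which were kept once. Reads were recovered from the deposited CPM steps, and 100% of values were whole within 0.001. The title spelled 27_vacf was taken for the vcaf library of that mouse. Coordinates and exon lengths come from GENCODE M21 on GRCm38, which held 99.5% of the identifiers.

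Tests were two-sided and used limma 3.58.1 in R 4.3.3 on log2(CPM + 1) with the trend option over 15456 genes, a mean per population (8 residual degrees of freedom) and Benjamini-Hochberg adjustment over all genes. On this scale the change of low genes is understated. A call is an adjusted p below 0.05. Alternatives were other scalings, a pseudocount of 0.25, no filter, the mouse as a block, an epithelial covariate, leaving out each library, edgeR 4.0.16 and DESeq2 1.42.0 on recovered reads, and, for collagen load, the fibrillar chains alone. With edgeR, 952 genes were higher and 1136 lower in m2cafpos against m2cafneg. The test among mice and the scaled member sums were added after seeing the data. The scripts were tested on simulated counts.

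Mouse numbers come from the labels and mark shared animals, so they pair the libraries: deviations from the population means had a median r of 0.293 over 18 pairs of the same mouse (0.0843 to 0.452) and -0.149 across mice and populations. Such deviations sum to 0 within a population, so the second value largely follows from the first and adds no separate evidence. Members and lists were chosen with earlier results of these data known. Values per library are given for Hspa5, Creb3l1, Xbp1, Atf4, Ddit3, Kdelr3, Mia3, Sec24d and Fkbp10, and for up to 4 called members of greatest rise and up to 4 of greatest fall in each comparison of m2cafpos. Up to 4 genes of each other list are named by smallest adjusted p.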

Additional observations from a re-analysis of the deposited data

How the results depend on the processing

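Counts of members called moved with the scaling and the filter. The 6 members higher in m2cafpos against m2cafneg became 17 with median-of-ratios scaling, 16 with TMM scaling, 11 with CPM over reads outside collagen genes, 15 with edgeR, 19 with DESeq2, 3 with no filter and 0 with the epithelial covariate, where 2 were lower in place of 1. The 6 higher against icaf became 11, 10, 12, 10, 12 and 3 under the first 6 of these settings in that order. Against vcaf, 25 became 11 with the epithelial covariate, and the 3 lower became 1 with median-of-ratios, TMM and outside-collagen scaling, edgeR and DESeq2. In m2cafneg against icaf the 5 higher became 2 with median-of-ratios and TMM scaling, edgeR and DESeq2 and 0 with the covariate, while the 3 lower became 6 with median-of-ratios and TMM scaling, 5 with edgeR, 8 with DESeq2, 5 with the replicate block and 0 with no filter or the covariate. In m2cafneg against vcaf the 2 lower became 1 with a pseudocount of 0.25 and 0 with no filter, the 3 scalings, edgeR and DESeq2. In icaf against vcaf 23 higher became 10 with the covariate, and 4 lower became 2 with it, median-of-ratios and TMM scaling, edgeR and DESeq2. Shares of all genes called were counted only for the main fit, median-of-ratios scaling, the block and edgeR. Under the other settings it cannot be told whether the members moved more than all genes. The covariate cannot be told apart from the gate in comparisons of m2cafpos or icaf with m2cafneg or vcaf. The cause was not tested.

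With the mouse as a block, every call of a member made without it was kept. Calls were added for Fkbp14 and Sec24d in m2cafpos against m2cafneg, Atf6 and Herpud1 against icaf, and Hspa5 against vcaf. In m2cafneg, Sec61b, Ssr2 and Sar1a were added against icaf, and Hspa5, Dnajb9 and Mia3 against vcaf. In icaf against vcaf, Dnajb9, Sec61b, Sar1b and Kdelr1 were added. The replicate block changed no other call of a member.

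Leaving out 1 library at a time gave 3 to 8 higher members in m2cafpos against m2cafneg, 3 to 7 against icaf and 24 to 26 against vcaf. It gave 3 to 5 higher and 0 to 4 lower in m2cafneg against icaf, 17 to 21 higher and 0 to 2 lower in m2cafneg against vcaf, 21 to 25 higher and 3 to 5 lower in icaf against vcaf, and 26 to 31 in the F test. Of 2172 values of single genes under these settings 2032 kept their call, as did 1394 of 1629 under the other alternatives.

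Values of the genes named that changed sign, with a call in at least one of both fits, were -0.12 for Hspa5 in icaf against vcaf and 0.041 for Sdf2l1 in m2cafneg against icaf with the epithelial covariate, and, with DESeq2, 0.50 for Sdf2l1 and 0.0042 for Spcs2 in m2cafpos against vcaf. With median-of-ratios, TMM, edgeR and DESeq2, Creb3l2 in icaf against vcaf stood at 0.40, 0.39, 0.38 and 0.39, Atf4 in m2cafpos against vcaf at 0.46, 0.44, 0.44 and 0.47, and Atf4 in icaf against vcaf at 0.086, 0.072, 0.069 and 0.078. Atf6 in m2cafpos against vcaf changed sign with a call too (0.49 with median-of-ratios scaling). Uncalled values changed sign as well, such as those of Canx in m2cafpos against m2cafneg and of Sdf2l1 against vcaf with median-of-ratios scaling (0.15 and 0.47).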
